A study of Mus musculus with 6 samples.

Results

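The genes of the proteasome were compared between splenic natural killer (NK) cells with and without CD117, the product of Kit and the receptor for stem cell factor. Members were all genes whose symbol, updated by gene ID, starts with Psma to Psmg followed by a digit, which gave 47 of the 17626 genes with a probe on the array, each read from its brightest probe. Of these, 45 are proteasome subunits, regulators or assembly factors and 2, Psmc3ip and Psme3ip1, share the symbol pattern without being subunits. Psmc1, Psmf1 and Psmg4 had no probe matched by this rule and were not analysed here. The cells came from the spleens of female C57Bl/6 mice aged 7 weeks, which the labels give no transgene or treatment. Kit+ cells were sorted as CD3-negative, NK1.1-positive and CD117-positive, Kit- cells as CD3-negative, NK1.1-positive and CD117-negative, to a stated purity of about 98%, in sorts done 3 times. Each of the 3 numbers in the titles therefore holds 1 Kit- and 1 Kit+ sample, each on 1 Illumina bead array, and how many animals went into a sort is not given in the sources used here.

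The proteasome is the barrel-shaped protease that cuts up ubiquitin-tagged proteins. Its core is built from rings of alpha subunits (Psma genes), which form the gate, and rings of beta subunits (Psmb genes), 3 of which (Psmb5, Psmb6 and Psmb7) carry the cutting sites. In cells exposed to interferon-gamma, and constitutively in many lymphocytes, these are replaced by Psmb8, Psmb9 and Psmb10, which makes the immunoproteasome, and the activator ring of Psme1 and Psme2 is bound to the core; this favours the peptides that are presented on MHC class I. The regulatory cap (Psmc ATPases and Psmd subunits) recognises, unfolds and deubiquitinates substrates, and the Psmg chaperones help to assemble the core.

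As a check of the labels, Kit transcript was 7.12-fold higher in Kit+ (log2 fold 2.83, SE 0.22; limma adjusted p = 0.000563, and 0.0313 with no replicate block), in each of the 3 pairs. Averaging both kept Kit probes gave a log2 fold of 1.43, and with arrays centred on their medians the adjusted p was 0.0523. The raw median signal of the 6 arrays lay between 68.9 and 130, and the raw 99th percentile was 4850 and 6370 for number 1 against 1027 to 1951 for the other arrays. On the normalized log2 scale, the background level, taken from olfactory and vomeronasal receptor probes, lay between 6.58 and 7.23. The proteasome genes were well measured against it: 31 of the 45 tested were above background on all 6 arrays. Psmb11, a subunit of the thymus, and Psma8, of the testis, were above background on no array, were too dim to be tested and are left out of the counts of tested genes. The 45 tested genes, called proteasome genes below for short, still include Psmc3ip and Psme3ip1, which are not subunits. Markers of other cells moved with the groups. Over all genes tested, 3.92% passed as higher in Kit+ and 4.42% as lower. Of 11 tested macrophage and monocyte markers, 7 rose and none fell, and their summed linear signal was 1072 to 1258 in Kit- and 3244 to 4038 in Kit+. Each of the 11 was above background on at least 1 Kit+ array, while Cd14 and Spic were too dim to be tested. Among 10 markers of dendritic cells and MHC class II, 5 rose (summed 2110 to 3792 in Kit- and 4516 to 11587 in Kit+), and of 7 neutrophil markers 4 rose (summed 604 to 846 and 1017 to 2742). Of 9 NK markers 4 fell (summed 36886 to 39747 in Kit- and 26549 to 32239 in Kit+). The NK markers Ncr1, Klrk1 and Klrd1 were higher in Kit+ for all 3 numbers without passing. Among 7 T cell markers 1 rose, Cd3d, by 2.71-fold (limma adjusted p = 0.00331) in cells sorted as CD3-negative. The other T cell markers did not move with it as a set: of the 7 log2 folds 4 were above 0 and 3 below. Cd3e was lower in each pair without passing (log2 fold -0.81, limma adjusted p = 0.0974). Cd4, Cd8a and Cd5 were above background on no array. Among 4 B cell markers 1 rose, Cd79b, by at least 2.01-fold (limma adjusted p = 0.0143). None of 4 erythroid markers passed, but their sums did not overlap (506 to 977 in Kit- and 1160 to 1863 in Kit+). With no replicate block, 5 macrophage, 1 dendritic cell and 0 neutrophil, T cell and B cell markers rose, and 2 NK markers fell. The part of these cells in the results below was not tested, and in bulk samples fewer cells of a type and less RNA per cell cannot be told apart.

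Few proteasome genes passed the test between Kit+ and Kit- cells, and those that did lay in both directions. Of the 45 tested, 2 rose in Kit+ (Psmd14 and Psmg2), 4 fell (Psma1, Psma4, Psma7 and Psme2) and 39 did not pass, at an adjusted p under 0.05 in a limma fit paired by number (the replicate block). The background over all 11742 genes tested was 3.92% higher and 4.42% lower, against 4.44% and 8.89% of the proteasome genes. The median log2 fold was -0.02 over the proteasome genes and 0.03 over all genes, with 22 of the 45 above 0 and 23 below. Regardless of sign, the median size of the log2 fold was 0.36 over the proteasome genes and 0.19 over all genes, and 17 of 45 had an unadjusted p under 0.05 against 2605 of 11742. Above background on all 6 arrays were 31 of the 45 and 3958 of the 11742. By direction alone, 15 of the 45 were higher in Kit+ for all 3 numbers and 11 lower, against 24.3% and 17.3% of all genes. In the same fit without the replicate block none of the 45 passed (9 at an unadjusted p under 0.05), where the background was 0.528% higher and 0.758% lower. Where arrays were centred on their medians and not quantile normalized, none passed either (11 at an unadjusted p under 0.05, limma with the block), and without number 2, 1 fell and none rose.

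**Figure D1:**
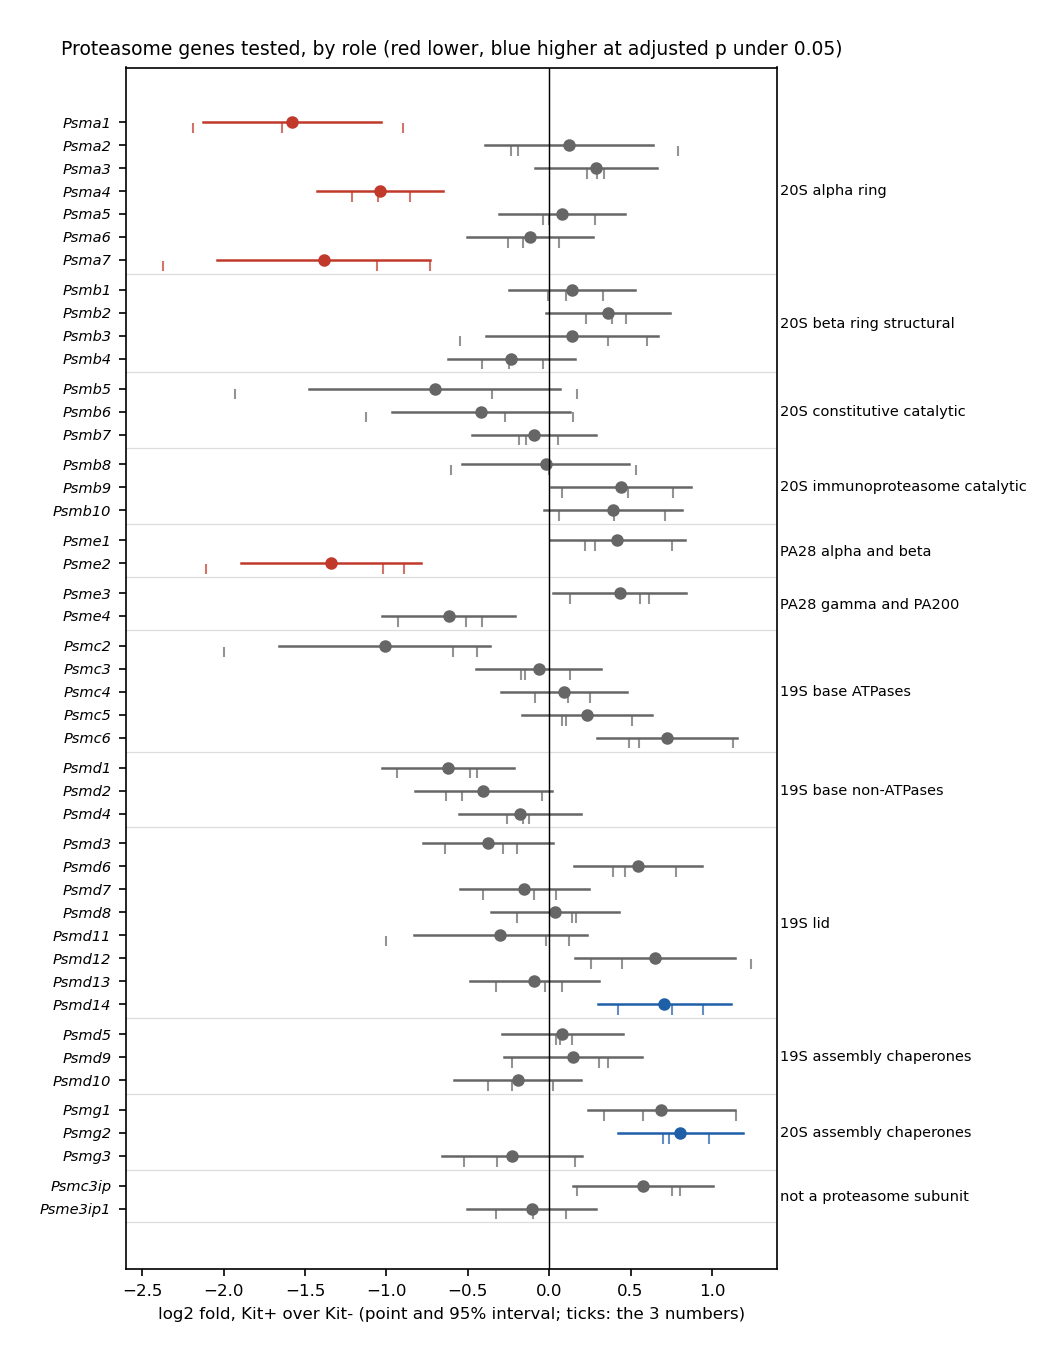
Log2 fold of Kit+ over Kit- (horizontal axis) for the 45 tested proteasome genes, grouped by role, with the 95% interval of the paired limma fit as a line and the 3 numbers as ticks. The 4 genes that fell (red) lie between -1.04 and -1.58 and the 2 that rose (blue) at 0.71 and 0.81, while most of the others lie within 0.5 of 0.

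The immunoproteasome genes did not move as a unit. Of the 5, Psmb9, Psmb10 and Psme1 were 1.36, 1.31 and 1.34 times as high in Kit+ and higher for all 3 numbers, without passing the test; Psmb8 was level by its brightest probe; and Psme2 fell. Psmb9, whose product takes the place of Psmb6, stood at 10.79, 10.67 and 10.39 in Kit- 1, 2 and 3 and at 10.87, 11.43 and 10.87 in Kit+. All 3 Kit+ values lay above all Kit- values, by a narrow margin (log2 fold 0.44, 95% interval 0.01 to 0.87, limma adjusted p = 0.209). Psmb10, which takes the place of Psmb7, read 10.95, 10.60 and 10.58 in Kit- and 11.01, 11.00 and 11.29 in Kit+, again without overlap (log2 fold 0.39, 95% interval -0.03 to 0.81, limma adjusted p = 0.268). Its second kept probe, nearly as bright, had overlapping groups and was lower in Kit+ for number 1 (log2 fold 0.06, limma adjusted p = 0.902). Over all genes, the Kit+ samples lay wholly above the Kit- samples for 10% of genes and wholly below for 7.92%, and among the 45 for 5 and 6 genes.

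Psmb8, the immunoproteasome subunit that takes the place of Psmb5, had 11.71, 11.96 and 11.97 in Kit- and 11.71, 11.36 and 12.50 in Kit+. Its groups overlapped, with number 1 level, number 2 lower in Kit+ and number 3 higher (log2 fold -0.02, 95% interval -0.53 to 0.49, limma adjusted p = 0.978). Its sign turned in 7 of 18 other settings, and where its 3 kept probes were averaged it was lower and passed (log2 fold -1.70, limma adjusted p = 0.00701). Psme1, the alpha chain of the activator ring, read 11.10, 11.16 and 11.58 in Kit- and 11.32, 11.92 and 11.86 in Kit+. The groups overlapped although each pair went up (log2 fold 0.42, 95% interval 0.00 to 0.83, limma adjusted p = 0.22).

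Psme2, the beta chain of the same activator ring, fell. Its level was 8.14, 7.77 and 8.25 in Kit- and 6.03, 6.87 and 7.23 in Kit+, with no overlap, and 2 of the 3 Kit+ values did not exceed the background level. Measured against that level it was at least 2.17-fold lower (log2 fold -1.34, SE 0.25, limma adjusted p = 0.0132, and 0.107 with no replicate block, 0.0717 without number 2). Psme1 and Psme2 are neighbours on chromosome 14, with Emc9 between them, and their products assemble into one ring. The log2 fold of Psme1 lay above that of Psme2 in each pair, by 1.30 in number 3, where Psme2 was above background in both samples. With 3 pairs an exact two-sided sign-flip test cannot go below p = 0.25, so none is given for differences between the log2 folds of genes. Psme2 had 1 probe and Psme1 had 2, the dimmer of which had a log2 fold of -0.14.

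**Figure D2:**
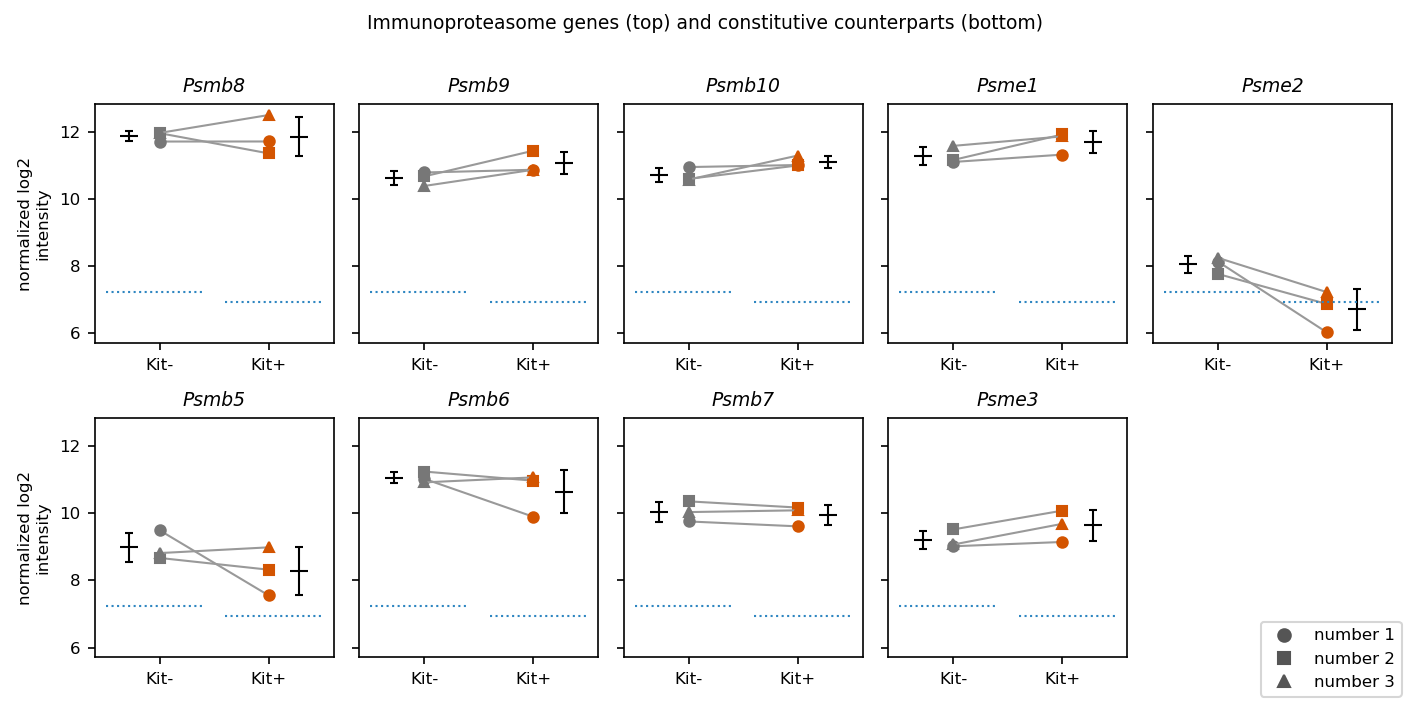
Normalized log2 intensity (vertical axis) of the 5 immunoproteasome genes (top) and of Psmb5, Psmb6, Psmb7 and Psme3 (bottom) in each sample; lines join the samples of a number, black bars are the mean and SD (n = 3), and dotted lines are the highest background level of each group's arrays. Psme2 falls in each pair, to the background in Kit+ 1 and 2, while Psmb9, Psmb10 and Psme1 tilt upward and Psmb5 drops mainly in number 1.

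The constitutive counterparts did not pass the test. Psmb5, which carries the chymotrypsin-like site, stood at 9.48, 8.67 and 8.81 in Kit- and at 7.55, 8.32 and 8.98 in Kit+. Its groups overlapped, and the difference came mostly from number 1 (log2 fold -0.70, 95% interval -1.48 to 0.07, limma adjusted p = 0.276); without number 3 it passed (log2 fold -1.14, adjusted p = 0.0145). Psmb6, with the caspase-like site, read 11.02, 11.24 and 10.92 in Kit- and 9.89, 10.97 and 11.06 in Kit+, and number 1 was again the pair with the largest difference (log2 fold -0.42, 95% interval -0.96 to 0.13, limma adjusted p = 0.38). Psmb7, with the trypsin-like site, read 9.75, 10.35 and 10.03 in Kit- and 9.61, 10.17 and 10.08 in Kit+, with overlapping groups (log2 fold -0.09, 95% interval -0.47 to 0.29, limma adjusted p = 0.838). Psme3, which forms the nuclear activator ring, read 9.01, 9.52 and 9.07 in Kit- and 9.14, 10.07 and 9.68 in Kit+. It was higher in Kit+ for all 3 numbers, and its groups overlapped (log2 fold 0.43, 95% interval 0.03 to 0.84, limma adjusted p = 0.194).

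Set against each other, the immunoproteasome genes had a median log2 fold of 0.39 (1 of 5 fell, none rose) and the 30 constitutive core and cap subunits a median of -0.09 (3 fell, 1 rose), beside 0.03 over all genes. Of all genes 4.42% fell and 3.92% rose. The difference of the medians was 0.48 over all samples, and 0.25, 0.51 and 0.39 in numbers 1, 2 and 3 (SD 0.13, n = 3). It had the same sign for each number, and it rests on the brightest probes of Psmb9, Psmb10 and Psme1, since Psmb8 was level and Psme2 lower. By subunit exchange and the brightest probes, the log2 fold of Psmb9 exceeded that of Psmb6 by 0.86 ± 0.46 and that of Psmb10 exceeded that of Psmb7 by 0.48 ± 0.24 (SD, n = 3 each), in all 3 numbers. The second Psmb10 probe had a log2 fold of 0.06. The log2 fold of Psmb8 exceeded that of Psmb5 by 0.68 ± 1.13 (SD, n = 3), in numbers 1 and 3 but not in number 2, a spread larger than the difference. With the mean of all kept probes of a gene in place of the brightest, the immunoproteasome median was 0.14 and the difference of medians 0.35, and Psmb8 fell beside Psme2 while Psmb7 also fell (log2 fold -0.98, limma adjusted p = 0.0292). Macrophage and dendritic cell markers, whose sums did not overlap between the groups, moved with the same samples.

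Probes of one gene often disagreed. Of the 45 tested genes, 14 had further kept probes, 19 in all, and 6 of the 19 passed as lower in Kit+ and none as higher when every kept probe was tested separately, a comparison chosen after the data were seen. Over all genes, 6.39% of 4573 such further probes passed as lower and 0.984% as higher. The log2 fold of the further probe lay below that of the brightest for 14 of 19, and for 61.3% over all genes. Its sign was opposite for 7 of 19 (36.8%), and for 45.2% over all genes. The 6 probes belong to Psmb8, Psmb7, Psmb3, Psmc5, Psmd13 and Psmd7, none of which passed by its brightest probe, so that 10 genes had a probe that fell. Of all 64 kept probes of the proteasome genes 10 passed as lower (15.6%) and 3 as higher (4.69%), against a background of 4.98% and 3.12% of the 16315 kept probes. For Psmb8 the second brightest probe read 10.82, 12.11 and 11.68 in Kit- and 6.37, 7.67 and 8.67 in Kit+. That is no overlap and a gap of 3.00 log2 units or more in each pair, while the brightest probe of the same gene was level. With 1 of the Kit+ values below background, the second probe was at least 14.7-fold lower (log2 fold -3.96, SE 0.28; limma adjusted p = 0.000479, and 0.0215 with no replicate block). The dimmest Psmb8 probe had a log2 fold of -1.10 (limma adjusted p = 0.0542).

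For the constitutive subunit Psmb7, the dimmest of its 3 kept probes read 9.05, 9.85 and 9.55 in Kit- and 6.12, 7.77 and 8.14 in Kit+, at least 3.93-fold lower (limma adjusted p = 0.0026, and 0.0944 with no replicate block), beside -0.09 for the brightest. For Psmd13, a subunit of the cap's lid, the second probe was at least 2.83-fold lower, with the whole Kit+ group below background (log2 fold -1.96, SE 0.19; limma adjusted p = 0.000911, and 0.014 with no replicate block), beside -0.09 for the brightest. The probe of the ring subunit Psmb3 had a log2 fold of -2.02 (limma adjusted p = 0.0295, and 0.156 with no replicate block). Those of the ATPase Psmc5 and the lid subunit Psmd7, not above background on all Kit+ arrays, were at least 2.42-fold and 1.62-fold lower (limma adjusted p = 0.00403 and 0.00588, and 0.0204 and 0.0393 with no replicate block). A further Psmd7 probe was at 0.24. The files do not say where in a transcript each probe binds, so whether isoforms, position or cross-hybridisation go with the disagreement was not tested. All 3 kept probes of Psmb8 and of Psmb7 had log2 folds below 0, but from -0.02 to -3.96 and from -0.09 to -2.14. The second Psmb7 probe was at -0.72 (limma adjusted p = 0.181). The size of either difference is thus not settled here, and by the brightest probes neither is its sign. Psmb5, Psmb9 and Psme2 rest on 1 probe each.

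**Figure D3:**
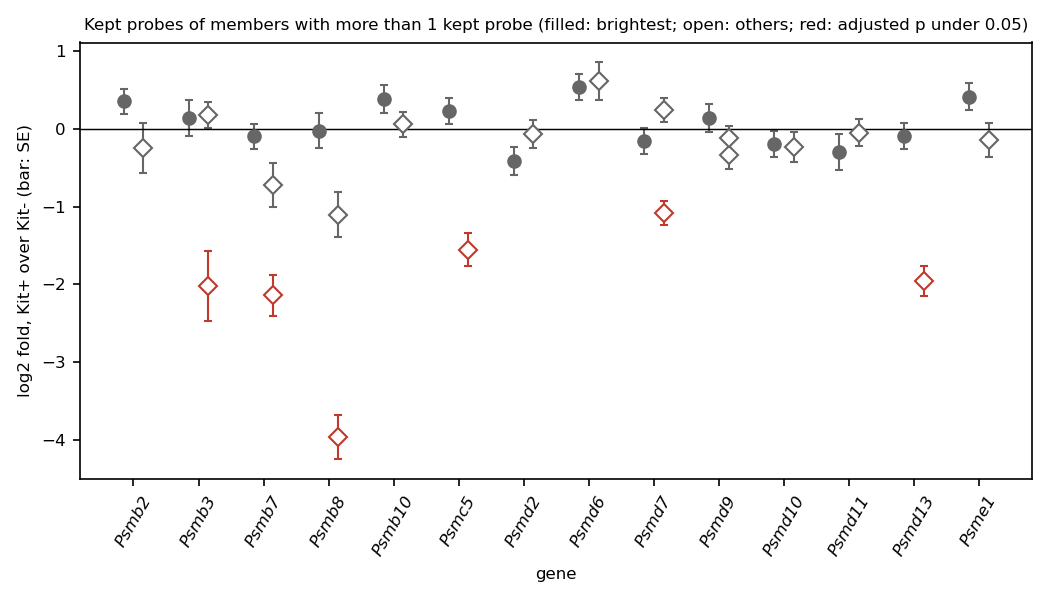
Log2 fold of Kit+ over Kit- (vertical axis, bars are the SE) of each kept probe of the 14 genes with more than 1 kept probe; filled points are the brightest probe of a gene and open diamonds the others. The 6 probes in red passed as lower, with the Psmb8 probe at -3.96 farthest from the brightest probe of its gene.

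In the alpha ring, 3 of 7 tested genes fell and none rose, beside 4.42% and 3.92% of all genes. These were the largest falls among the core subunits by the brightest probe. Psma1 stood at 8.17, 7.27 and 8.87 in Kit- 1, 2 and 3 and at 6.53, 6.37 and 6.68 in Kit+. The whole Kit+ group lay below background, and Psma1 was at least 2.51-fold lower (log2 fold -1.58, SE 0.24, limma adjusted p = 0.00623, and 0.106 with no replicate block). It passed without any 1 of the 3 numbers, and its second probe was above background on no array. Psma4 read 9.16, 9.94 and 9.81 in Kit- and 7.95, 8.89 and 8.96 in Kit+, above background throughout and without overlap, and was 2.05-fold lower (log2 fold -1.04, SE 0.17, limma adjusted p = 0.00851, and 0.212 with no replicate block, 0.0724 without number 2). Psma7 read 9.39, 9.41 and 9.17 in Kit- and 7.02, 8.35 and 8.44 in Kit+. Its groups did not overlap, with the lowest value in Kit+ 1, and it was 2.61-fold lower (log2 fold -1.39, SE 0.29, limma adjusted p = 0.0214, and 0.144 with no replicate block, 0.127 without number 2). The other 4 tested alpha subunits had log2 folds from -0.12 (Psma6) to 0.29 (Psma3), with Psma2 at 0.12 and Psma5 at 0.08. Of the 7 log2 folds 4 were below 0 and 3 above, so the ring's subunits shared no direction. Of the 4 beta subunits without a cutting site, Psmb1 to Psmb4, none passed by its brightest probe (log2 fold -0.23 to 0.36). Of 9 NK markers 4 fell with the same samples, while 3 others were higher in Kit+ for all 3 numbers without passing.

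**Figure D4:**
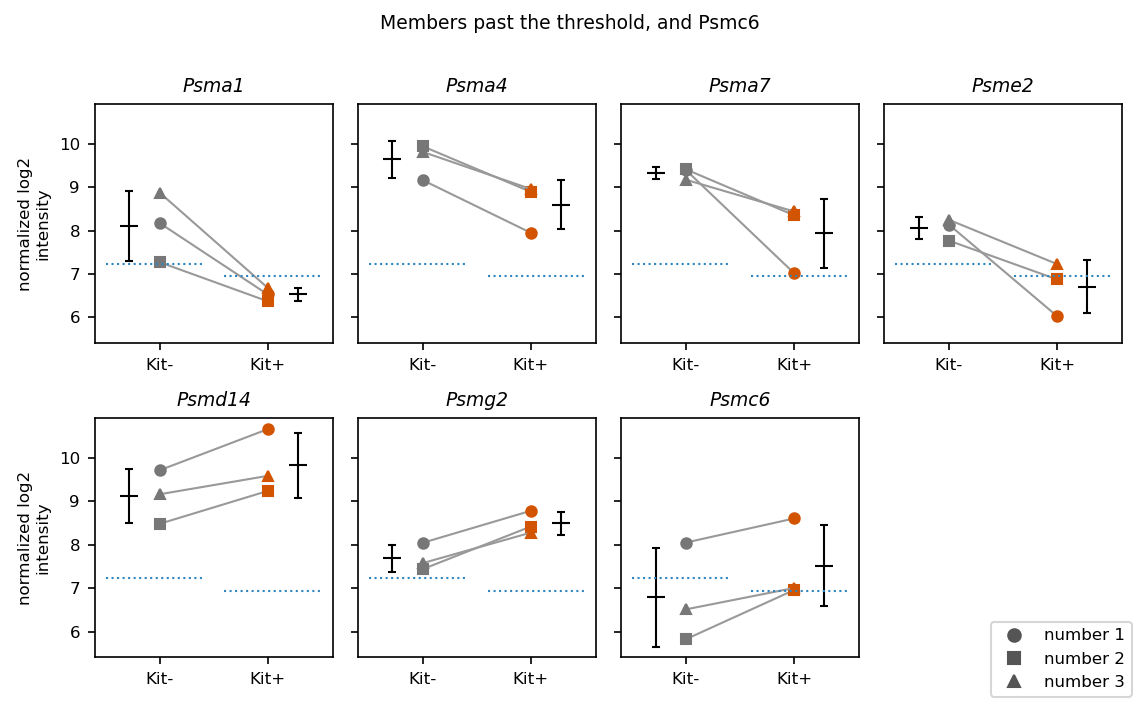
Normalized log2 intensity (vertical axis) in each sample of the 6 proteasome genes that passed the test and of Psmc6, drawn as in the plot of the immunoproteasome genes. Psma1 reaches the background level in all Kit+ samples and Psme2 in 2 of them, Psma4 and Psma7 fall while staying above it on each array, and Psmd14 and Psmg2 rise in each pair.

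The promoter windows of the 4 genes that fell are shown together with that of Psme1, the neighbour of Psme2 that did not, because these genes moved together or apart in the comparison. Each runs 5′ to 3′ from 250 bases before to 50 after the gene start (RefSeq, GRCm38.p6): chr7:114276067-114276366 (minus strand) for Psma1, chr9:54950609-54950908 (plus) for Psma4, chr2:180042415-180042714 (minus) for Psma7, chr14:55591052-55591351 (minus, the first of its 2 windows) for Psme2 and chr14:55578244-55578543 (plus) for Psme1. Capitals mark matches on either strand to the interferon-stimulated response element GAAANNGAAA, TGANNNNGC, a looser pattern than the core usually given for the antioxidant response element, and the CCAAT box.
Psma1: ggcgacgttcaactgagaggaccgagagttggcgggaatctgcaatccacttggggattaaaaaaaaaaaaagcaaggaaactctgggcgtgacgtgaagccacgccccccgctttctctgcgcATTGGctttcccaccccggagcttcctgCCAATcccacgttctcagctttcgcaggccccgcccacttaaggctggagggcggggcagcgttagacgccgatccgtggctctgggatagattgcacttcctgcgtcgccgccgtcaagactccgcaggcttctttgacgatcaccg
Psma4: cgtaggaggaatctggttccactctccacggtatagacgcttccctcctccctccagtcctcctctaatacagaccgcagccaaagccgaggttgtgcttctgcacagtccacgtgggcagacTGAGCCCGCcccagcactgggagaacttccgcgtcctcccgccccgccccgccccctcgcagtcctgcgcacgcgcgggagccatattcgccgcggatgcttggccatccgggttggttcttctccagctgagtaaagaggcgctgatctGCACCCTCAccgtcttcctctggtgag
Psma7: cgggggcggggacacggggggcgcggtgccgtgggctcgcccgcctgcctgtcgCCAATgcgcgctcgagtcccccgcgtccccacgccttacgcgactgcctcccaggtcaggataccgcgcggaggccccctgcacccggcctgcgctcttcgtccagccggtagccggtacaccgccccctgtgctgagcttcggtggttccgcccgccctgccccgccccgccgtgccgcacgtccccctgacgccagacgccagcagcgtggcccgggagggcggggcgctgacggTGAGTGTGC
Psme2: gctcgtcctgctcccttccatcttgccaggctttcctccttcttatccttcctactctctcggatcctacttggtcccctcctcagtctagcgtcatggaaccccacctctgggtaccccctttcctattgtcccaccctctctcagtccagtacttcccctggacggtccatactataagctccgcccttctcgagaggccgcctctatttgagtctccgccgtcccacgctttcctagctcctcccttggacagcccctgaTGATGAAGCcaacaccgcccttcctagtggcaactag
Psme1: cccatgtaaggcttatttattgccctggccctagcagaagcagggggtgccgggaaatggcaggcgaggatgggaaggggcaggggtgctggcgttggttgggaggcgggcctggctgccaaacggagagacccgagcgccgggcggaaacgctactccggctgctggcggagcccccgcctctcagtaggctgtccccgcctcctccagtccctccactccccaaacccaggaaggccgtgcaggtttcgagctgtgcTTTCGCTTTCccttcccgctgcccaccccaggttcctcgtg
In this window Psme1 held the interferon-stimulated element, at bases 260 to 269 and so just after the gene start, and Psme2 did not. Psme2 held the loose antioxidant pattern at bases 264 to 272, Psma4 held it at 124 to 132 and 274 to 282, and Psma7 at 292 to 300. Psma1 had CCAAT boxes at bases 125 to 129 and 153 to 157, and Psma7 at 55 to 59. No motif was found in all of the 4 windows. Of the 47 proteasome genes 39 had a window in the table, Psmb11 included, and by the first window of each 4 held the interferon-stimulated element, 22 the loose antioxidant pattern and 14 the CCAAT box, which is 10.3%, 56.4% and 35.9%. Besides Psme1, the holders of the interferon-stimulated element were Psmb3, Psmd4 and Psmd9, and Psmb8, Psmb9 and Psmb10 did not hold it. The shares over all 32851 windows, which count every window of a gene, were 3.44%, 41.3% and 37.4%. Psma8, Psmb1, Psmb2, Psmb7, Psmc3, Psmd3, Psmd7 and Psmg2 were not matched.

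In the regulatory cap, 1 of 16 tested genes passed by its brightest probe, as higher, beside 3.92% higher and 4.42% lower over all genes. Psmd14, the deubiquitinase of the lid that removes ubiquitin chains from substrates, stood at 9.71, 8.48 and 9.16 in Kit- and at 10.66, 9.24 and 9.58 in Kit+. The groups overlapped because the numbers differed in level, but each pair went up, 1.63-fold on average (log2 fold 0.71, SE 0.18, limma adjusted p = 0.0442, and 0.605 with no replicate block). It did not pass without number 1 (0.21) or without number 2 (0.181). The ATPase Psmc6 lay at the threshold: 8.05, 5.83 and 6.51 in Kit- and 8.60, 6.96 and 7.00 in Kit+, higher in each pair, with 2 of the Kit- values below background (log2 fold 0.73, SE 0.19, limma adjusted p = 0.05); it passed in 6 of 18 other settings. Psmc2, another ATPase, pointed the other way, at -1.01 on the log2 scale (SE 0.29; limma adjusted p = 0.0637), with its Kit+ group below background. The remaining ATPases Psmc3, Psmc4 and Psmc5 had log2 folds of -0.06 to 0.23. All 3 non-ATPase subunits of the base, which bind ubiquitin chains and their carriers, were lower in Kit+ for each number without passing (Psmd1 at -0.62, Psmd2 at -0.41 and Psmd4 at -0.18). The lid subunits other than Psmd14 had log2 folds of -0.37 (Psmd3) to 0.65 (Psmd12). These are values of the brightest probes, and other kept probes of Psmc5, Psmd13 and Psmd7 passed as lower, as given above.

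Of the 6 tested assembly chaperones, 1 rose and none fell, beside 3.92% and 4.42% of all genes. Psmg2, which with Psmg1 forms the dimer that guides assembly of the alpha ring, read 8.04, 7.44 and 7.58 in Kit- and 8.78, 8.42 and 8.28 in Kit+. All Kit+ values lay above all Kit- values, and Psmg2 was 1.75-fold higher (log2 fold 0.81, SE 0.17, limma adjusted p = 0.0222, and 0.176 with no replicate block, 0.126 without number 2). Its partner Psmg1 read 7.74, 7.40 and 7.68 in Kit- and 8.32, 8.55 and 8.02 in Kit+, also without overlap, and did not pass (log2 fold 0.69, SE 0.20, limma adjusted p = 0.0698). Psmg3 had a log2 fold of -0.23, and the chaperones of the base, Psmd5, Psmd9 and Psmd10, lay between -0.19 and 0.15. The activator Psme4 was lower in Kit+ for all 3 numbers without passing (log2 fold -0.62, limma adjusted p = 0.0711), with its Kit+ group below background. Of the 2 genes that only share the symbol pattern, the recombination factor Psmc3ip had a log2 fold of 0.58 (limma adjusted p = 0.103) and Psme3ip1 of -0.11 (limma adjusted p = 0.817). Cell cycle genes moved with the same groups: 5 of 11 rose and none fell, and their summed linear signal was 2639 to 4497 in Kit- and 3979 to 6122 in Kit+. Their part in the rise of Psmg2 was not tested.

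Proteasome genes also differed in level between the 3 numbers. The range of the 3 number means exceeded the group difference for 32 of 45 genes (71.1%), near the 74.6% over all genes. A range of 3 means tends to exceed a difference between the group means even where neither number nor group matters. The share therefore does not show which of them is larger. Psma5 had the widest range, at 9.22 and 9.18 in Kit- 1 and Kit+ 1 and at 6.19 to 6.56 on the other 4 arrays, where it was not above background. Its group difference was close to 0 (log2 fold 0.08). Psmc6 and Psmd14 were likewise highest on both number 1 arrays, and the number means of these genes spread over 1.94 and 1.33 log2 units, while Psmb1 and Psma2 were lowest there. The number 1 arrays also had the highest raw 99th percentile, and the part of that in these levels was not tested.

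**Figure D5:**
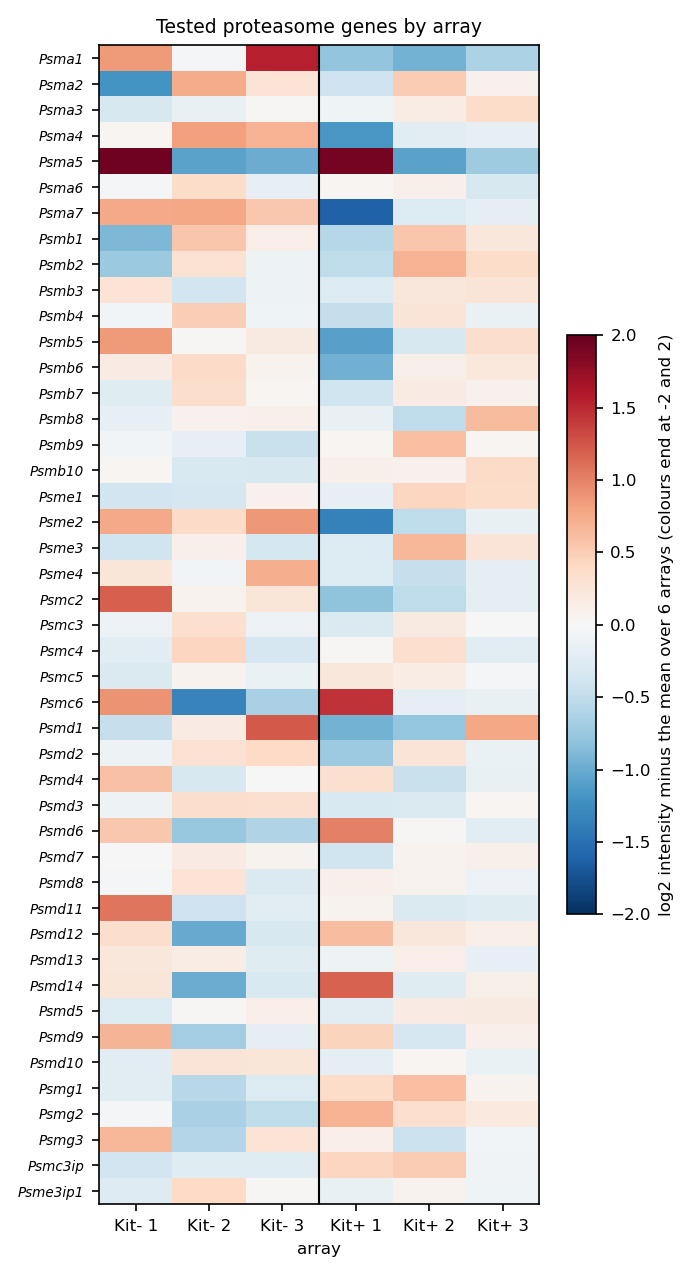
Normalized log2 intensity of the 45 tested proteasome genes (rows, ordered by role) on the 6 arrays (columns), as the difference from the mean of each gene over all arrays; colours end at 2 log2 units either way. Psma5 stands out on both number 1 arrays, and Psma1, Psma4, Psma7 and Psme2 are darker blue on the Kit+ side.

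Partners of the proteasome outside the rule were more often higher than lower in Kit+, but few passed. Of 27 listed partners 20 had a probe and 18 were tested, and 1 rose and none fell, beside 3.92% and 4.42% of all genes. Their log2 folds were above 0 for 13 and below for 5, and 8 of the 18 were higher for all 3 numbers, beside 24.3% of all genes. Ecpas, the adaptor that tethers caps and cores, read 7.99, 8.38 and 8.88 in Kit- and 9.19, 9.50 and 9.20 in Kit+, without overlap (log2 fold 0.88, SE 0.21, limma adjusted p = 0.0373, and 0.177 with no replicate block). The cap's other deubiquitinases Uchl5 and Usp14 had log2 folds of 0.64 (limma adjusted p = 0.069) and 0.54 (0.158), and Nploc4, a cofactor of the unfoldase Vcp, of -0.64 (0.0638). Nfe2l1, the transcription factor that drives proteasome genes, was level (log2 fold -0.01, limma adjusted p = 0.982). Of the 6 ubiquitin genes and activating enzymes, 1 had a probe, Uba6, with a log2 fold of 0.72 (limma adjusted p = 0.06). The 18 partners had a median log2 fold of 0.22 and a median size of 0.34, beside 0.03 and 0.19 over all genes.

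Genes of peptide supply to MHC class I, from peptidases to transport and loading, had log2 folds above 0 for 7 and below for 4. Those below were Tap1, Tap2, Tapbp and Pdia3, each lower in Kit+ for all 3 numbers, while 3 others were higher for all 3 (17.3% and 24.3% of all genes). Of 13 listed 11 were tested, with a median log2 fold of 0.11, beside 0.03 over all genes. In the test 2 fell and none rose, beside 4.42% and 3.92% of all genes. The 2 that fell were Pdia3, a disulfide isomerase of the loading complex (log2 fold -1.04, SE 0.20, limma adjusted p = 0.0167, and 0.466 with no replicate block), and Tapbp, which bridges the peptide transporter to class I (at least 1.44-fold lower, with 2 of the Kit+ values below background, limma adjusted p = 0.0404, and 0.293 with no replicate block). The transporter genes Tap1 and Tap2 alternate with Psmb9 and Psmb8 on chromosome 17. Tap1 averaged 7.77 (SD 0.26, n = 3) in Kit- against 7.07 (SD 0.29, n = 3) in Kit+, without overlap and lower in each pair (log2 fold -0.69, SE 0.19, limma adjusted p = 0.06), while its neighbour Psmb9 was higher in each pair. Tap2 had a log2 fold of -0.40 (limma adjusted p = 0.25) and the peptidase Tpp2 of 0.59 (limma adjusted p = 0.0926).

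In the interferon-gamma axis, which induces the immunoproteasome, 3 of 9 tested genes fell and 1 rose, beside 4.42% and 3.92% of all genes. The list median was -0.49, beside 0.03 over all genes. Ifngr1, the ligand-binding receptor chain, read 10.06, 9.87 and 10.12 in Kit- and 7.20, 7.99 and 8.05 in Kit+, and was 4.81-fold lower (log2 fold -2.27, SE 0.22, limma adjusted p = 0.000828). This was the 1 gene of the 4 lists that also passed with no replicate block (0.013). The transcription factor Irf8 fell 1.88-fold (limma adjusted p = 0.0167, and 0.27 with no replicate block) and the kinase Jak1 1.92-fold (limma adjusted p = 0.0419, and 0.411 with no replicate block), with another kept Jak1 probe of the opposite sign. Ifngr2, the second receptor chain, had its Kit- group below background and was at least 1.09-fold higher (limma adjusted p = 0.0456, and 0.209 with no replicate block). Irf1, the factor that acts on the immunoproteasome genes, was level (log2 fold -0.0011, 95% interval -0.39 to 0.39, limma adjusted p = 0.999), and Ifng itself had a log2 fold of -0.83 (limma adjusted p = 0.117). Irf9 and Irf2 had log2 folds of -0.49 and -0.48 (limma adjusted p = 0.136 and 0.147). Macrophage and monocyte markers rose with the same samples, and their part was not tested.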

How the data were processed

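RNA of 3 Kit- and 3 Kit+ samples was labelled with biotin and measured on 1-colour Illumina bead arrays of 45988 probes. Per the file headers, the deposited array files give 1 raw, linear intensity a probe and no detection p-value. BeadStudio 3.1.1.0 is named in the submitters' processing notes. A further deposited value table of the series, also linear intensity, matched a quantile normalization of the raw intensity within 0.000223 of a value, with a median of 92.8 in every column, not centred and in the direction of the raw signal. It was used to choose the brightest probe of each gene, and its log2 values were an alternative.

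Background correction of the raw intensities used normexp in limma with an offset of 50, followed by log2 and quantile normalization. Of the probes, 29457 had 1 gene symbol in the platform annotation held by GEO, some of it old, 11 had several and 16520 had none listed; 29399 were updated by gene ID through RefSeq (GRCm38.p6). The files name no build. Genes whose mean log2 value was higher than that of the median probe (6.31) were tested, which kept 11742 of 17626 genes and 45 of 47 members. The background level of an array was taken from 1178 probes for olfactory and vomeronasal receptors, at their 95th percentile. Where a group was not above it on all 3 arrays, the fold is a lower bound against that level, or against the sample's own value where it is higher.

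Groups were compared with lmFit and eBayes (limma 3.58.1, R 4.3.3), with the title number as a block, since the comparison was to be paired by that number, with Benjamini-Hochberg adjustment across every gene tested. As a check of the pairing, the deviations of 2 samples of a number from the group means correlated at 0.641, 0.529 and 0.278 across genes. Those of other pairs lay at -0.576 to 0.0882. Since each group was centred on its own mean, positive values for same numbers draw the others down, so the others add no separate support. The check cannot tell a shared sort from shared handling of the arrays. Same-numbered samples were treated as pairs. With the block, p-values and intervals rest on the spread of the differences within pairs over the 3 sorts, not on the spread between sorts. The eBayes step draws the spread of each gene towards that of all genes tested, so calls and intervals depend on it. The number of arrays limits the precision. No slide or scan date was given in the labels. The code was tested on simulated data that kept the fitted levels of the 3 numbers. With the block, 8.66% of changes of 0.5 log2 units and 90.4% of changes of 1 were recovered, and 7.67% of the calls were false. With no block, 0% and 1.79% were recovered. A gene that did not pass may thus still differ by such amounts. Members, gene lists and markers were chosen with earlier results of these data known. Named with their values are the 5 immunoproteasome genes, their 4 counterparts, members past the threshold, the 3 largest rises and falls among tested members, and in each further list the genes past the threshold and up to 3 others with the smallest p. Psmg1, Psmc2, Psma5 and other members are examples of their groups, and Nfe2l1, Irf1 and the further probes were picked with their values already seen. The alternatives were the fit with no block, other background corrections and normalizations, other filters, other probe rules, array weights, and leaving out samples.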

Additional observations from a re-analysis of the deposited data

How the results depend on the processing

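Leaving out the replicate block ended every call among the proteasome genes by their brightest probes: 0 rose and 0 fell (limma; 9 of 45 at an unadjusted p under 0.05), with 0 pathway genes higher, 1 lower and 151 of 979 calls left over all genes. Median centring in place of quantile normalization called 0 proteasome genes in either direction (11 at an unadjusted p under 0.05), 0 pathway genes higher, 0 lower and 24 genes in all. With the mean of all kept probes 8 proteasome genes fell, Psmb8 (-1.70) and Psmb7 (-0.984) among them, and with every kept probe tested, an alternative chosen after the data were seen, 10 had a probe that fell. The former also moved the immunoproteasome median from 0.39 to 0.14 and its difference from the constitutive median from 0.48 to 0.35. Array weights left 1 proteasome gene higher. With no background correction, with the deposited value table or with probes above background on at least 3 of 6 arrays, 1 pathway gene in place of 2 was higher.

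Leaving out a number (with the block) or a single sample (without it) gave 0 to 4 proteasome genes higher, 0 to 6 lower, 0 to 1 pathway genes higher, 0 to 5 lower and 0 to 1241 genes called in all (887, 160 and 1241 without numbers 1, 2 and 3; 78, 39, 37, 31, 9 and 0 without a single sample); the immunoproteasome median lay between 0.23 and 0.519, the constitutive median between -0.174 and -0.021 and their difference between 0.337 and 0.54. In fits of 2 numbers little is left to estimate the spread from, and arrays were not normalized again. Psmb8 by its brightest probe had no stable sign: its log2 fold was 0.0607 with median centring, 0.12 with array weights and -0.344 to 0.267 in the fits with samples left out (-0.299 without number 3, and above 0 in 5 of 9, at 0.267, 0.227, 0.0499, 0.0224 and 0.0173). Psmb7 was at 0.0604 and 0.0805 in 2 of those. Of the 6 called members none changed sign in any of 18 settings; Psma1 kept its call in 11, Psma4, Psma7, Psme2 and Psmg2 in 9 each and Psmd14 in 6. The causes were not tested. Genes near the background level (Psma1, Psme2, Psmc2, Psmc6) have folds that the array's floor limits.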
